A study of Saccharina japonica with 2 samples.

Results

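The unigenes described here were abundant transcripts of the kelp Saccharina japonica that took nearly the same share of the reads under blue light (BL) and in darkness. A unigene is a transcript sequence assembled from the reads themselves. Members were chosen by their measured values, namely a length of at least 500 bp, at least 200 uniquely aligned reads in each library, and a log2 ratio of BL over dark of at most 0.2 in absolute value. The ratio was taken between shares of the library's total reads. Unigenes with a GC content of 40% or less were left out, as were those on the study's lists of photoreceptors, plant circadian rhythm, flavonoid biosynthesis, photoreactivation and photomorphogenesis. Of 70288 unigenes with a read, 23163 had the length and 6649 also had the reads. Leaving out 36 of these for their GC content and 26 for the lists gave 6587 abundant unigenes, and 1070 of them, 16.2%, were members. Because the ratio chose the members, it is given for them as a description and was not tested.

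The study asked which kelp transcripts respond to BL. Sporophytes were kept for 4 h in darkness and then placed for 2 h in sterilized seawater, under blue LEDs for the BL library and in darkness for the dark library. The labels call the material vegetative tissue of mature thalli, whereas the study's methods speak of juvenile sporophytes. Several individuals were pooled for each treatment and polyadenylated RNA of each pool gave 1 library, so differences between individuals could not be measured. Both treatments shared the preceding darkness, and the dark library therefore stands for kelp kept in darkness throughout, not for kelp in white light. In pooled tissue, fewer cells of a type and less RNA per cell cannot be told apart.

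Transcripts that hold their level under a treatment serve as references in quantitative PCR, where the target is expressed relative to them. Genes of basic cell upkeep, such as actin, tubulin, polyubiquitin, translation elongation factors and cyclophilins, are the usual choices in plants and algae. Sequencing reads give shares of a library and not amounts per cell, so a transcript looks unchanged only relative to the scale chosen for the libraries.

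The BL library held 11410538 uniquely aligned reads on 69362 unigenes and the dark library 10905306 on 61927. The 6587 abundant unigenes took 55.7% of the BL reads and 56.8% of the dark reads, and the 1070 members 7.59% of the BL reads and 7.61% of the dark reads. The libraries differed in base composition, with a read-weighted GC content of 54.2% in BL and 51.1% in darkness over all unigenes. Over the members it was 53.0% in both libraries. That equality, like their near-equal share of the reads, follows from the rule that chose them.

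Levels of the members were moderate to high. Their median RPKM (reads scaled by the unigene's length and by the library's total reads) was 33.3 in BL and 33.8 in darkness, with ranges of 7.23 to 613 in BL and 8.28 to 561 in darkness. Over all unigenes with a read the median was 6.53 RPKM in BL and 3.97 RPKM in darkness. Over all abundant unigenes, which met the same minimum, it was 40.6 RPKM in BL and 45.1 RPKM in darkness, higher than over the members. Members carried a median of 539 reads in BL, with a range of 201 to 7692, and a median of 523.5 reads in darkness, with a range of 201 to 6720. Of the members, 500 had a ratio above 0 and 570 below 0. Among the other abundant unigenes 2133 lay above 0.2 and 3384 below -0.2, and the median log2 ratio of all 6587 was -0.23. The band around 0 thus did not sit in the middle of the abundant unigenes, but on the upper side of their median. A ratio of at least 1 was held by 924 abundant unigenes (14.0%) and one of at most -1 by 1134 (17.2%).

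**Figure D1:**
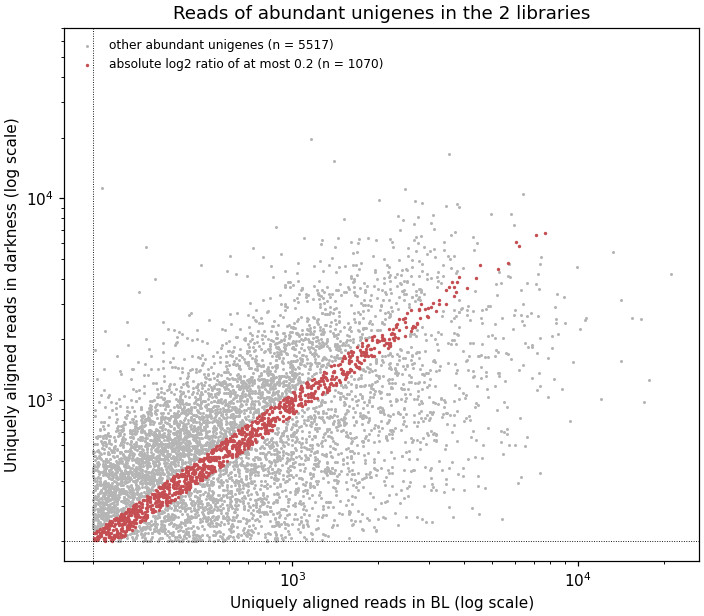
Uniquely aligned reads of each abundant unigene in BL (horizontal, log scale) and in darkness (vertical, log scale), 1 library each; dotted lines mark 200 reads. The 1070 members (red) form the narrow band of near-equal read shares, and the 5517 other abundant unigenes (grey) spread to both sides of it.

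The 5 most-read members were well above the median in both libraries. Unigene548, whose identifier lay outside the annotation at hand, was the most-read member, with 7692 reads in BL and 6720 in darkness (613 RPKM in BL and 561 RPKM in darkness). Unigene11234, described as a lipase, an enzyme that cleaves lipids, had 7118 reads in BL and 6559 in darkness, and its log2 ratio was 0.05 with an exact 95% interval of 0.00 to 0.10. Such intervals cover counting error only, since reads after PCR are not independent molecules and no second library exists. The sequencing was paired-end, and the study's methods do not say whether both ends of a fragment were counted. If they were, the intervals are too narrow even for counting error. Unigene222, also outside the annotation at hand, had 6244 reads in BL and 5791 in darkness, a log2 ratio of 0.04 (-0.01 to 0.10). Unigene141, described only by the name of an Arabidopsis locus, had 6067 reads in BL and 6109 in darkness, a log2 ratio of -0.08 (-0.13 to -0.02). These 3 ratios were the closest to 0 among the 5. Unigene385 had 5678 reads in BL and 4781 in darkness, and its interval of 0.13 to 0.24 ran past the upper limit of the band.

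Members at the edge of the band were hardly different from unigenes just beyond it. Unigene3998, the highest member with a log2 ratio of 0.20, had 256 reads in BL and 213 in darkness, and Unigene571, the first abundant unigene above the band, had 249 reads in BL and 207 in darkness. On the lower side Unigene606, the lowest member, had 409 reads in BL and 449 in darkness. Unigene11446, just below the band with a ratio of -0.20, had 253 reads in BL and 278 in darkness. The interval of Unigene571 ran from -0.07 to 0.47 and that of Unigene11446 from -0.45 to 0.05, so that counting error alone did not separate either from the members.

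At this depth the ratio of most members could not be fixed to within 0.2. The interval reached a median of 0.18 to each side of the ratio, with a range of 0.05 to 0.29. The whole interval stayed within 0.2 of 0 in 199 members (18.6%), within 0.3 in 600 (56.1%), within 0.4 in 994 (92.9%) and within 0.5 in all 1070. None of the members had an interval inside 0.2 with fewer than 890 reads over both libraries, and 636 members had at least that many. The interval included 0 in 856 members, lay above 0 in 103 and below 0 in 111. Conversely, 884 abundant unigenes outside the band had intervals that reached into it. The word unchanged, used for these unigenes, therefore covers changes of up to 0.5 on the log2 scale in either direction. That holds for counting error with reads taken as independent, and the limit is wider if both ends of a fragment were counted.

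Annotation was available for the first 1998 entries of the study's annotation list, ordered by identifier, and 206 members had identifiers in that range. A description was given for 116 of these (56.3%), against 632 of 1223 abundant unigenes in the same range (51.7%). For 82 members the description named a function. The members therefore held transcripts of known kinds, and as a share of the annotated abundant unigenes they made up 18.4% (116 of 632), beside 16.2% among all abundant unigenes. In the 82 members with a named function, 33 ratios were above 0 and 49 below 0, and 10 had an interval within 0.2. Unigenes that share a description may be fragments of 1 gene or copies of a family, and the counting was not stated to use strand, so single values carry that uncertainty.

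Protein synthesis and RNA processing supplied members in small numbers, as their lists were short. The counts in these and the following lists stand beside a share of 18.4% (116 of 632) over all annotated abundant unigenes. Of 12 abundant translation factors 2 were members (16.7%), with 5 above 0.2 and 5 below -0.2. Unigene10744, a eukaryotic initiation factor, which helps the ribosome to start on an mRNA, had 2820 reads in BL and 2994 in darkness (74.5 RPKM in BL and 82.8 RPKM in darkness), a log2 ratio of -0.15 (-0.23 to -0.08). Unigene12294, a translation initiation factor, had 1470 reads in BL and 1230 in darkness, a log2 ratio of 0.19 (0.08 to 0.30). These members of the same machinery thus lay on opposite sides of 0, and neither interval included 0. Unigene14711, a 50S ribosomal protein, part of the large subunit of the bacterial-type ribosome, had 429 reads in BL and 372 in darkness. It was the single member among 5 abundant ribosomal proteins, which ranged from -2.45 to 1.18. Unigene1106, described as small nuclear ribonucleoprotein SmF, a core part of the spliceosome, had 422 reads in BL and 443 in darkness and was 1 of 11 abundant splicing and RNA-binding proteins. None of 6 abundant aminoacyl-tRNA synthetases, which load tRNAs with amino acids, fell in the band, and their median log2 ratio was -0.49. The list of RNA helicases had 1 abundant unigene, at a log2 ratio of 2.05. In the list of RNA polymerase and transcription 1 of 9 was a member, Unigene11139, described as a transcription factor, with 381 reads in BL and 414 in darkness.

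Protein turnover and folding had members close to 0. Unigene12436, described as proteasome, the complex that degrades ubiquitin-tagged proteins, had 1738 reads in BL and 1522 in darkness (159 RPKM in BL and 146 RPKM in darkness), a log2 ratio of 0.13 (0.03 to 0.23). Unigene10848, a proteasome family protein, had 1176 reads in BL and 1191 in darkness, a log2 ratio of -0.08 (-0.20 to 0.03). They were the 2 members among 13 abundant unigenes of the proteasome and ubiquitin list, of which 8 lay above 0.2 and 3 below -0.2. Among 14 chaperones 3 were members. Unigene12250, a plastidal groES chaperonin, the lid of the chaperonin folding chamber, had 708 reads in BL and 694 in darkness, a log2 ratio of -0.04 (-0.19 to 0.12). Unigene11345, a heat shock protein, had 561 reads in BL and 570 in darkness, a log2 ratio of -0.09 (-0.26 to 0.08). The third, the cis/trans isomerase Unigene12318, is given with the usual reference transcripts.

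Metabolism and transport supplied several of the most-read members with a named function. Unigene10874, described as nitrite transporter NAR1, of a family that moves nitrite into the chloroplast in the green alga Chlamydomonas, had 3765 reads in BL and 3862 in darkness (128 RPKM in BL and 137 RPKM in darkness). Its log2 ratio was -0.10 and its interval of -0.17 to -0.04 stayed inside the band. Unigene10870, an ATP-citrate synthase, which makes cytosolic acetyl-CoA from citrate, had 1574 reads in BL and 1377 in darkness, a log2 ratio of 0.13 (0.02 to 0.23). It was 1 of 2 members among 12 abundant unigenes of central carbon metabolism, which ranged from -2.01 to 3.26, the other being the phosphogluconate aldolase Unigene14688 with 613 reads in BL and 533 in darkness. Unigene10867, a mitochondrial phosphate carrier, which brings phosphate into the matrix for ATP synthesis, had 1282 reads in BL and 1245 in darkness, a log2 ratio of -0.02 (-0.14 to 0.09). Of 15 abundant transporters and channels 3 were members, and of 7 abundant unigenes of respiration and ATP synthesis 2, both lists sharing Unigene10867 and the mitochondrial substrate carrier Unigene10778. Unigene10778 had 661 reads in BL and 681 in darkness. Unigene145, a beta-glucosidase, which releases glucose from beta-linked sugars, had 1772 reads in BL and 1725 in darkness, a log2 ratio of -0.03 (-0.12 to 0.07).

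Photosynthesis and plastid functions were mostly above the band by total reads. Of 15 abundant unigenes in that list 12 lay above 0.2, 2 below -0.2 and 1, the groES chaperonin Unigene12250, within the band (6.67%, beside 18.4% of annotated abundant unigenes, a difference of few unigenes in a list of this size), and their median log2 ratio was 0.65 beside 0.08 for all 632 annotated abundant unigenes. Their median GC content was 59.98%, beside 55.4% for all annotated ones, and with the trend of the ratio with GC content removed their median ratio was -0.71, beside -0.25 for all annotated ones. The direction of this list thus turned with that scaling, and so did that of all annotated abundant unigenes. Other lists turned as well, such as ribosomal proteins (0.34 to -1.07) and proteasome and ubiquitin (0.56 to -0.83). The list of RNA polymerase and transcription stayed above 0 (0.81 to 0.17). These values used the GC trend of unigenes with at least 50 reads, which stood at 1.62 in its class of 59.9% median GC. The trend of abundant unigenes alone was lower, at 0.92 in its class of 60.5% median GC. The lists were not recomputed with that trend, so how far they turn depends on the trend used.

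Cell wall, cytoskeleton and redox proteins supplied further members. The cell wall and extracellular matrix list had 6 members of 32 abundant unigenes (18.75%), beside 18.4% of all annotated abundant unigenes, with 20 above 0.2 and 6 below -0.2. Unigene14548, described as minus agglutinin after an adhesion glycoprotein of Chlamydomonas gametes, had 2129 reads in BL and 1920 in darkness, a log2 ratio of 0.08 (-0.01 to 0.17). Unigene10849, a cell wall protein, had 1021 reads in BL and 1028 in darkness, a log2 ratio of -0.08 (-0.20 to 0.05). Unigene10917, an endo-1,3-beta-glucanase, an enzyme that cuts 1,3-linked glucans, had 698 reads in BL and 646 in darkness. Of 13 abundant cytoskeletal unigenes 3 were members, and all 3 were described as formins, which nucleate and extend actin filaments. Unigene12283, formin 2B, had 1758 reads in BL and 1861 in darkness, a log2 ratio of -0.15 (-0.24 to -0.05). The formin-like proteins Unigene11734 and Unigene14666 had 439 and 206 reads in BL, against 410 and 225 reads in darkness. A further abundant formin-like protein, Unigene12350, lay below the band at a log2 ratio of -0.48. Unigene11053, described as DSBA oxidoreductase after a bacterial enzyme that forms disulphide bonds, had 1814 reads in BL and 1988 in darkness, a log2 ratio of -0.20 (-0.29 to -0.10) at the edge of the band. Unigene11006, selenoprotein T, a redox protein of the endoplasmic reticulum in animals, had 2067 reads in BL and 2099 in darkness, a log2 ratio of -0.09 (-0.18 to 0.00). Among 17 stress and redox unigenes 2 were members, Unigene11004, described as imm upregulated after a developmental mutant of the brown alga Ectocarpus, with 1168 reads in BL and 1072 in darkness, and the pathogenesis-related protein Unigene12516 with 901 reads in BL and 983 in darkness.

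Signalling and traffic added few. Of 12 abundant kinases and phosphatases 1 was a member (8.33%, beside 18.4% of annotated abundant unigenes). It was the phosphatase Unigene11072, with 586 reads in BL and 592 in darkness. Of 7 small GTPases and GTP-binding proteins, which act as molecular switches, 2 were members (28.6%). Unigene11126 had 1367 reads in BL and 1481 in darkness, and Unigene12553 had 243 reads in BL and 219 in darkness. Of 11 unigenes of vesicle and membrane traffic 1 was a member (9.09%), the Golgi complex subunit Unigene14687 with 474 reads in BL and 514 in darkness. Proteins without a known function supplied 34 members of 181 abundant unigenes (18.8%), close to the share of all annotated abundant unigenes, and 30 members stood in at least 1 of the functional lists.

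**Figure D2:**
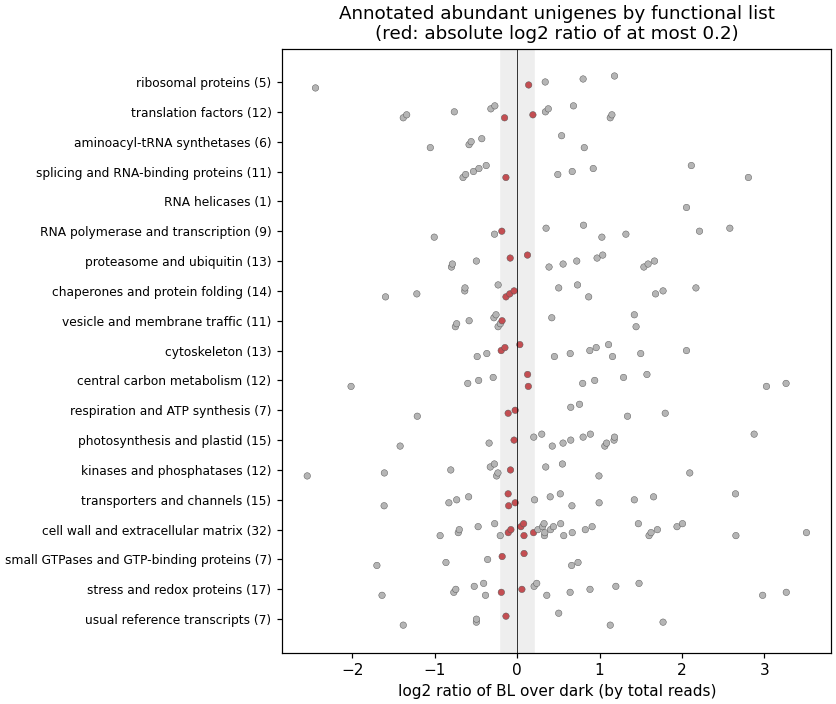
Log2 ratio of BL over dark (by total reads) of every annotated abundant unigene in each functional list, with the number of abundant unigenes in brackets; red points are members and the grey band marks 0.2 to either side of 0. In no list did the members make up more than 28.6% of the abundant unigenes, and the lists spread widely around the band.

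The 25 most-read members with a named function carried 1021 to 7118 reads in BL and 996 to 6559 reads in darkness. Of their ratios 10 lay above 0 and 15 below 0. The interval stayed within 0.2 for 7 of the 25 and included 0 for 10. The 7 were the lipase Unigene11234, the nitrite transporter Unigene10874, the selenoprotein T Unigene11006, the minus agglutinin Unigene14548, the beta-glucosidase Unigene145, the phosphate carrier Unigene10867 and the imm upregulated Unigene11004. An interval inside the band needs a ratio near 0 as well as many reads, so some members with narrower intervals, such as the initiation factor Unigene10744, were not among them. With the trend of the ratio with GC content removed, Unigene10874 at 0.12 and Unigene145 at 0.10 stayed in the band. The others of the 7 left it, with Unigene11004 at 0.36, Unigene11234 at 0.57, Unigene11006 at -1.46, Unigene10867 at -1.78 and Unigene14548 at -1.82.

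**Figure D3:**
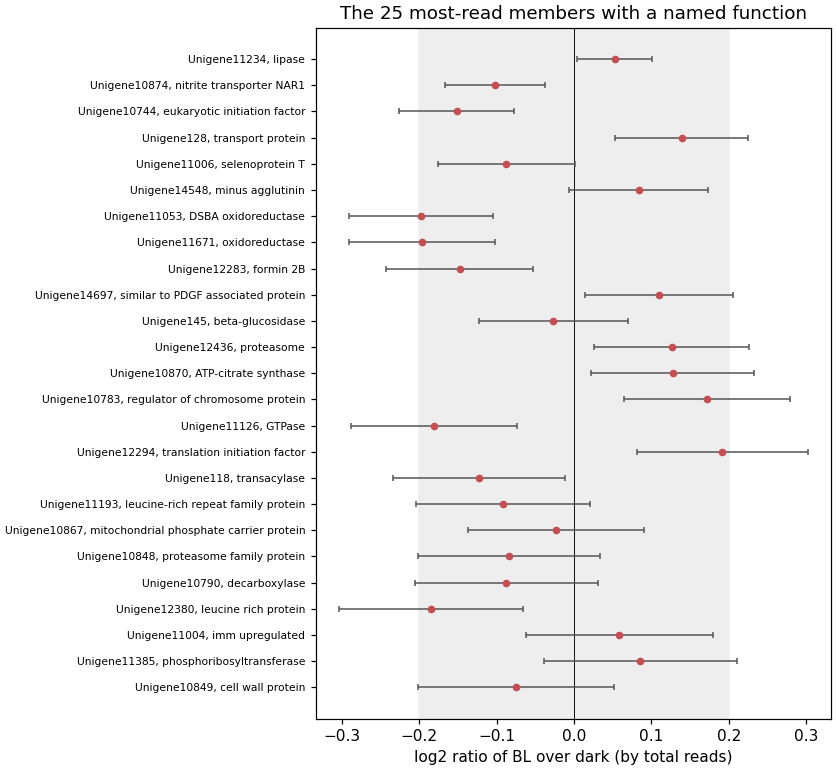
Log2 ratio of BL over dark (by total reads) of the 25 most-read members with a named function, from the most-read at the top, with the exact 95% interval for counting error as bars; the grey band marks 0.2 to either side of 0. Ratios run from -0.20 to 0.19, and 7 of the 25 intervals stay inside the band.

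Unigenes of the same description often differed in membership. Of 3 abundant lipases 2 were members, and the other stood at 3.56. Endo-1,3-beta-glucanase had 2 members of 3 abundant unigenes, with the third at 3.51. The 50S ribosomal proteins stood at 0.14 for the member Unigene14711 and at -2.45 for Unigene10992. Among 5 GTPases the 2 members lay within a range of -1.70 to 0.74, and among 10 unigenes described as dehydrogenase the 2 members lay within -0.61 to 3.11. Translation initiation factors were closer together, with 1 member of 3 and a range of -0.32 to 0.19. A described family could therefore hold a unigene of near-equal shares beside others that differed several fold.

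Unigenes on the list of usual reference transcripts, matched by words in their descriptions, differed widely in their ratios. The list held 20 described unigenes, of which 12 were at least 500 bp long, 7 were abundant and 1 was a member (14.3%, beside 18.4% of annotated abundant unigenes). That member, Unigene12318, is described as a cis/trans isomerase, the activity of cyclophilins, which turn proline bonds in folding proteins. Its description does not name a cyclophilin. It had 954 reads in BL and 1001 in darkness (52.8 RPKM in BL and 58.0 RPKM in darkness), a log2 ratio of -0.13 (-0.26 to -0.01). The cis-trans isomerases Unigene1299 and Unigene14894 were higher in the BL library, at 0.50 (0.35 to 0.66) and 1.77 (1.66 to 1.88). Unigene14894 had 3109 reads in BL and 871 in darkness, so isomerases with near-identical descriptions ran from -0.13 to 1.77. Elongation factor EF-3, which acts on the ribosome in fungi, was described for a pair of unigenes with opposite signs. Unigene11447 had 3772 reads in BL and 9386 in darkness, a log2 ratio of -1.38 (-1.44 to -1.33). Unigene14729 had 458 reads in BL and 200 in darkness, a log2 ratio of 1.13 (0.89 to 1.38). That ratio turned to -0.51 with the GC trend of unigenes with at least 50 reads removed. With the GC trend of abundant unigenes alone removed it was 0.32. Polyubiquitin, Unigene11949, had 998 reads in BL and 1343 in darkness, a log2 ratio of -0.49 (-0.61 to -0.37). The TIP41-like protein Unigene12525, whose Arabidopsis relative is a common reference gene, had 661 reads in BL and 889 in darkness, a log2 ratio of -0.49 (-0.64 to -0.35). By total reads the intervals of these 6 abundant unigenes outside the band did not reach it. Under other scalings some did change place. Unigene12525 stood at -0.10 with the GC trend removed. Unigene1299 stood at 0.08 with median-of-ratios size factors and at -1.37 with the GC trend removed.

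Some of the listed reference transcripts missed the length or the reads. They are named here after their values were seen. Unigene1107, described as similar to polyubiquitin and 363 bp long, had 1458 reads in BL and 1362 in darkness, a log2 ratio of 0.03 (-0.07 to 0.14). The peptidyl-prolyl cis-trans isomerase Unigene14930 had 179 reads in BL and 173 in darkness, a log2 ratio of -0.02 (-0.33 to 0.29). These ratios lay within the band and were left out by the rule alone. Actin superfamily Unigene14065 had 201 reads in BL and 72 in darkness, a log2 ratio of 1.42 (1.02 to 1.82). The tubulins were short, with alpha tubulin Unigene11226 of 213 bp at 0.47 (0.24 to 0.71) and beta tubulin Unigene13640 of 233 bp at 2.04 (1.82 to 2.27). Elongation factor Tu Unigene10016, of 270 bp, stood at -1.14 (-1.30 to -0.99). The elongation factor Unigene12363, of 393 bp, stood at -1.05 (-1.14 to -0.96). The peptidyl-prolyl cis-trans isomerase Unigene10135, of 381 bp, stood at 1.71 (1.45 to 1.97). The other listed unigenes that missed the length or the reads ran from 0.36 to 2.39. They had at most 222 reads in BL and 125 in darkness.

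The study's methods name β-actin as the internal control of its PCR, although the paper elsewhere names a ribosomal RNA gene as the control. The β-actin primers are shown because they define the transcript that those methods used as a reference, written 5′ to 3′ in lower case:
β-actin-F: gacgggtaaggaagaacgg
β-actin-R: gggacaaccaaaacaagggcaggat
The forward primer has 19 bases and the reverse primer 25. Unigene sequences were not used here, so the primers were not placed on a unigene, and whether they amplify Unigene14065 was not tested.

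Members were longer than the other abundant unigenes. Their median length was 1403 bp (quartiles 946 and 2041 bp), against 1192 bp for the 5517 abundant unigenes that were not members. The share of members was 12.7% among abundant unigenes of up to 1000 bp, 16.8% from there to 2000 bp and 21.7% above 2000 bp. Unigenes with a ratio of at least 1 were as long, with a median of 1422 bp, while those at or below -1 had a median of 925 bp. By reads over both libraries the share of members was 22.8% up to 800 reads, 14.8% up to 1600, 14.4% up to 3200 and 11.9% above. The lowest of these classes is set in part by the rule, since 200 reads in each library cap the ratio there. Unigenes with a ratio of at least 1 still reached down to 630 reads, and those at or below -1 to 603.

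GC content of the members centred where the abundant unigenes did. Their median was 52.5% (quartiles 49.4% and 55.8%), against 52.1% for all abundant unigenes. Unigenes with a ratio of at least 1 had a median of 58.0% and those at or below -1 one of 49.5%. The members lay between these groups, and their share followed the position of each GC class. It was 10.2% from 40% to 45% GC, where the median log2 ratio of abundant unigenes was -0.77, and 15.2% from 45% to 50%, where that median was -0.57. From 50% to 55% it was 18.1% at a median of -0.36, and from 55% to 60% it was 18.8% at a median of 0.24. Above 60% GC it was 9.79% at a median of 1.04, and there 80.9% of abundant unigenes lay above the band. A member of low GC content therefore stood above most unigenes of its own composition, and a member of high GC content below most of them. Whether base composition took part in the ratios was not tested, since with 1 library each it cannot be told apart from the treatment.

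**Figure D4:**
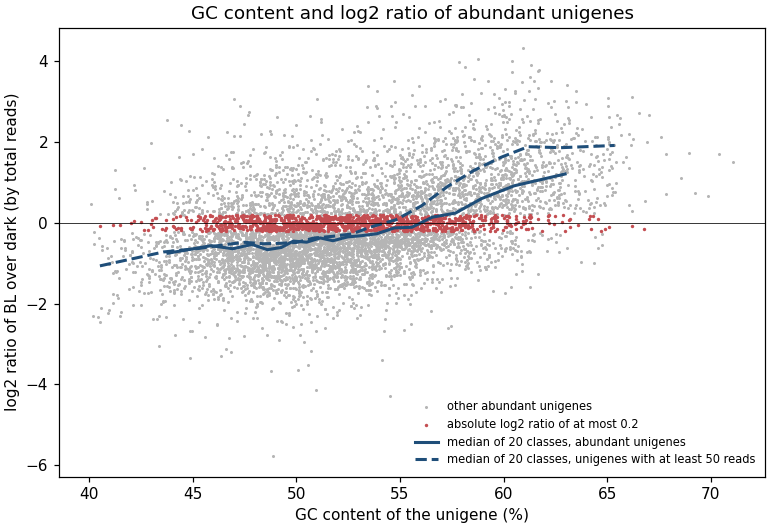
GC content (horizontal, percent) and log2 ratio of BL over dark by total reads (vertical) of the abundant unigenes, with members in red; lines join class medians, with unigenes split by GC content into 20 classes of equal size, solid for abundant unigenes and dashed for all unigenes with at least 50 reads. The red band cuts across a rising trend, from class medians of -0.75 to 1.21 over the abundant unigenes.

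Near-equal read numbers did not always mean reads from the same stretch of the unigene. Reads covered a median of 98.8% of a member's length in BL and 98.2% in darkness, and 802 members (74.95%) were covered by at least 95% in both libraries, beside 73.7% of all abundant unigenes. Covered length was at least 5 percentage points higher in BL in 119 members (11.1%), beside 9.20% of abundant unigenes, and at least 5 points lower in BL in 34 members (3.18%), beside 6.25%. Differences of at least 10 points were found in 36 members with the higher cover in BL, at a median GC content of 56.4%, and in 8 with the lower, at 49.5%.

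The widest gap was in Unigene47018, of 877 bp and 62.8% GC, which had 1788 reads in BL and 1679 in darkness. Those reads covered 98.5% of its length in BL and 26.6% in darkness. Equal read numbers thus came from nearly the whole unigene in BL and from a small stretch of it in darkness. Unigene47723, of 644 bp, had 489 reads over 99.5% of its length in BL and 515 reads over 40.4% in darkness. The opposite was seen in Unigene12508, of 713 bp, with 518 reads over 66.5% in BL and 526 reads over 88.1% in darkness. Among annotated members, the urease Unigene11003, which splits urea into ammonia and carbon dioxide, had 481 reads over 99.7% of its length in BL and 450 reads over 83.1% in darkness. These members, picked for their gap, show a ratio near 0 without an equal profile along the transcript.

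Which unigenes lay near 0 depended on the scale given to the libraries. With TMM factors, computed over unigenes of all levels, every log2 ratio moved by -0.29, and 281 members (26.3%) stayed within 0.2 while 789 lay below. With upper-quartile factors the move was -0.27 and 342 members stayed. With median-of-ratios size factors it was -0.42, more than the width of the band, so that none of the 1070 could stay. Their ratios ran from -0.62 to -0.22. Setting the median of the abundant unigenes to 0 moved all ratios the other way, by 0.23, with 482 members within 0.2 and 588 above. The median log2 ratio was 0.42 over the unigenes with reads in both libraries and -0.23 over the abundant ones, and these are the medians that the median-of-ratios factors and the last scaling set to 0. TMM and upper-quartile factors were not recomputed on abundant unigenes.

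Removing the trend of the ratio with GC content moved members in both directions. After the trend of unigenes with at least 50 reads was subtracted, 196 members (18.3%) stayed within 0.2, 561 lay above and 313 below, and 151 were past 1 in absolute value. All 323 members of 50% GC or less then lay above 0.2, and 304 of 324 members above 55% GC lay below -0.2. The lowest was the pathogenesis-related protein Unigene12516, of 64.7% GC, at -2.09 against -0.19 by total reads. With the trend of the abundant unigenes alone, 213 members stayed within 0.2, 676 lay above and 181 below. The 2 versions shared 81 members within 0.2.

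**Figure D5:**
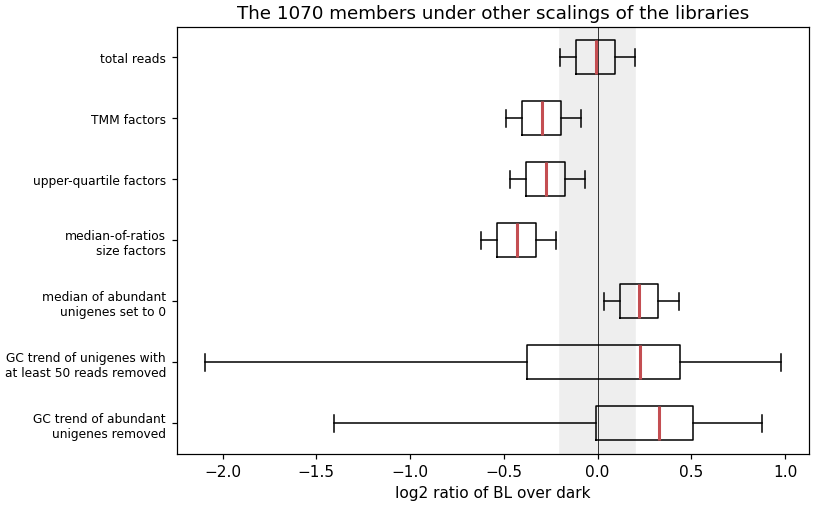
Log2 ratio of BL over dark of the 1070 members by total reads and under 6 other scalings; boxes span the quartiles, red lines are medians, whiskers reach the lowest and highest member, and the grey band marks 0.2 to either side of 0. By total reads all members sit in the band as chosen; factors over unigenes of all levels place the medians between -0.43 and -0.28, the median of abundant unigenes at 0.22 and the GC trends at 0.23 and 0.33 with long lower tails.

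None of the members could stay within 0.2 under all of these scalings. The median-of-ratios move of -0.42 was by itself wider than the band. TMM factors (-0.29) and the median of abundant unigenes set to 0 (0.23) moved ratios in opposite directions, so no member could stay under both. Within 0.5 of 0, 303 stayed under all of the scalings. Among members with a named function 20 did so. The most-read of the 20 was Unigene128, a transport protein, with 2341 reads in BL and 2032 in darkness, and its ratio ran from -0.40 to 0.37 over the scalings. The ATP-citrate synthase Unigene10870 ran from -0.29 to 0.36, and the beta-glucosidase Unigene145 from -0.45 to 0.27. The groES chaperonin Unigene12250 ran from -0.46 to 0.25. Unigene12318, from the list of usual reference transcripts, was not among them, since its ratio was -1.03 with the GC trend removed.

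A smaller set of 34 members stayed within 0.2 by total reads, with TMM factors, with upper-quartile factors and with the GC trend of unigenes of at least 50 reads removed. All lay between 53.9% and 55.7% GC, where that trend crosses 0. All had ratios above 0 by total reads, as the TMM move of -0.29 requires. The most-read was Unigene86, of 4211 bp, with 3438 reads in BL and 3008 in darkness (71.6 RPKM in BL and 65.5 RPKM in darkness), a log2 ratio of 0.13 (0.06 to 0.20). Unigene1710, of 2345 bp, followed with 3177 reads in BL and 2781 in darkness (119 RPKM in BL and 109 RPKM in darkness), a log2 ratio of 0.13 (0.05 to 0.20). These unigenes, named after their values were seen, had identifiers outside the annotation at hand. Among the 34, the single one with a named function was Unigene14697, described as similar to PDGF associated protein, with 1887 reads in BL and 1671 in darkness, a log2 ratio of 0.11 (0.01 to 0.21). Its ratio was -0.18 with TMM factors, -0.31 with median-of-ratios size factors and 0.02 with the GC trend removed. It was 0.34 with the median of abundant unigenes set to 0 and 0.23 with the GC trend of abundant unigenes alone removed. None of the 34 stayed within 0.2 under either of these or with median-of-ratios size factors.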

How the data were processed

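Each deposited count is a whole number of reads, aligned by the authors to a single assembled unigene and not normalized. The deposited percent values are, by the authors' headers, the covered length of each unigene and its GC and unknown bases, and the other deposited column is its length in bp. Per the study's methods, the authors assembled the cleaned reads of both libraries with SOAPdenovo. The aligner and the use of strand are not given in the sources used here. A unigene absent from a library's list was set to 0 reads. RPKM and ratios used the library's total uniquely aligned reads. Exact Clopper-Pearson 95% intervals came from the BL share of a unigene's reads (Python 3.11.15, SciPy 1.17.1). TMM and upper-quartile factors (edgeR 4.0.16) and median-of-ratios size factors (DESeq2 1.42.0) were used in R 4.3.3 for scaling only. The GC trend joined the median ratios of 20 classes of GC content. With 1 library per treatment no test was run.

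Members and lists were chosen with earlier results of these data known. Lists were text patterns on the descriptions, 1 of which was corrected after it matched the word interacting as actin. Named unigenes were the 25 most-read members with a named function, the 5 most-read members, up to 3 per list, all abundant usual reference transcripts, the 2 on each side of each limit, and up to 5 annotated members within 0.2 under the GC trend removal, 58 in all. Others were named after their values were seen. The calculations were checked on simulated data. Covered length was taken from its column header.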

Additional observations from a re-analysis of the deposited data

How the results depend on the processing

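No paired analysis was possible because each treatment has 1 library. For the same reason no library could be left out. Applying the rule afresh under each scaling gave 790 members with TMM factors, 814 with upper-quartile factors, 662 with median-of-ratios size factors and 1203 with the GC trend removed, against 1070 by total reads. As a share of abundant unigenes these were 12.0%, 12.4%, 10.1% and 18.3%, against 16.2%. Their median GC contents were 53.1%, 53.0%, 53.8% and 51.4%, against 52.5%, and median lengths with median-of-ratios size factors and with the GC trend removed were 1337 and 1287 bp, against 1403 bp. Of the 1070 members, 281, 342, 0 and 196 stayed in the band in that order. Centring on the median of abundant unigenes and taking the GC trend from abundant unigenes alone were added after the data had been seen. They gave 1219 and 1323 members, shares of 18.5% and 20.1%, median GC contents of 51.7% and 51.8%, median lengths of 1342 and 1256 bp, and kept 482 and 213 members. A limit of 0.1 gave 507 members (7.70%) and one of 0.3 a share of 24.2%. A minimum of 100 reads gave a share of 14.8%, a median GC content of 52.15% and a median length of 1176 bp, and one of 500 reads 553 members, 19.5%, 53.0% GC and 1645 bp. Without a length minimum the median length was 1141.5 bp, and at 1000 bp or more the share was 18.3%, the GC content 52.9% and the length 1723 bp. Requiring the whole interval within 0.5 gave 1694 members (25.7%). Keeping unigenes of 40% GC or less gave 1072 members, 16.2%, 52.5% GC and 1403 bp. Keeping those of the study's lists gave 1073 members, 16.2%, 52.5% GC and 1405 bp. With the GC trend removed the sign turned in 24 of the 58 named unigenes, most of them members near 0. Unigene14729 (elongation factor EF-3) went to -0.51, against 1.13 by total reads, Unigene1299 (cis-trans isomerase) to -1.37, against 0.50, and Unigene12436 (proteasome) to -1.76, against 0.13. With the GC trend taken from abundant unigenes alone they stood at 0.32, -0.59 and -0.88 in that order. Counting error, with reads taken as independent, limits a ratio to within 0.05 to 0.29 of its value at these depths. Variation between kelp could not be measured.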
